A study of Arabidopsis thaliana with 22 samples.

Results

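The mRNAs described here had a higher mean signal in *pab2 pab8* than in wild-type *Arabidopsis* seedlings. This held in total RNA and in both fractions of a polysome gradient. Probe sets named as seed storage, late embryogenesis abundant (LEA), flavonoid or histone mRNAs, which otherwise share the top of the ranking, were left out. Those without a gene name could not be left out in this way. Those with a locus ID alone and no annotation had no description by which to recognise a family. For each of 22746 probe sets the difference of group means, mutant minus wild-type on the log2 scale, was taken in total RNA (T), in nonpolysomal RNA (NP) and in polysomal RNA (PL). Probe sets were ranked by the smallest of the 3 differences, and the highest 100 were taken. Of these, 29 were dropped: 8 LEA, 4 histone, 4 flavonoid, 3 seed storage and 2 oleosin probe sets, and 8 genes excluded by name. The remaining 71 probe sets are the members. The members were thus chosen by the measured genotype differences themselves, so their values in the genotype comparison are a description and carry no test.

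PAB2 and PAB8 are poly(A) binding proteins, which coat the poly(A) tail of mRNAs and contact the initiation factors at the cap, and they act in both translation and mRNA stability. *Arabidopsis* has further members of the family, so the double mutant does not lack poly(A) binding protein altogether. Polysomal RNA carries several ribosomes per mRNA, and nonpolysomal RNA few or none. Array signals are relative within a kind of RNA, so a higher signal in T, NP and PL alike is a larger share of each pool.

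Both genotypes were in the Columbia ecotype and were grown alongside each other for 10 to 12 days in continuous light at 22°C, on agar with Murashige and Skoog salts and 1% sucrose, and their aerial parts were harvested. The mutant carried T-DNA insertions in both *PAB2* and *PAB8*. NP and PL RNA came from 4 biological replicates of each genotype, which were sown on separate occasions, and T RNA from 3, each on 1 ATH1 array, 22 in all. The mutant is 1 combination of alleles throughout. In T RNA the mutant differed from the wild-type by -5.74 (log2) for *PAB2* and by -3.73 for *PAB8*, which is the check of the labels. The median log2 signal of the arrays was 6.12 to 6.23 for T and 4.68 to 4.99 for NP and PL, the lowest being that of mutant NP replicate 2. T signals were compared only with T signals. Where differences in T are set beside those in the fractions, they come from arrays normalized apart, so their sizes compare only roughly. Of the markers for shoot mesophyll, *RCA* was measured under its name, at a log2 signal of 14.24 to 14.37 in wild-type T RNA, and differed between genotypes by -0.00. The root genes *PYK10* and *EXPA7* had mean wild-type T signals of 12.22 and 4.61 and differed in T by -0.06 and -0.37. No probe set was named for the 4 embryo regulators and the 4 floral genes listed. The part of any of these tissues in the results was not tested. In whole seedling shoots, more cells of a type and more RNA per cell cannot be told apart.

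Among the 71 members the median difference was 0.81 in T (range 0.45 to 3.08), 0.69 in NP (0.46 to 2.30) and 0.83 in PL (0.44 to 2.59), where the median over all probe sets was -0.03, -0.05 and 0.00. A 2-fold difference was reached by 21 members in T, 19 in NP and 26 in PL, and by 10 in all 3 kinds of RNA. Total RNA gave the largest of the 3 differences for 32 members, and NP gave the smallest for 31. The last probe sets inside the 100 were 248807_at, one shared by *AT4G16540* and *AT2G03020*, and 263485_at, with smallest differences of 0.45, 0.45 and 0.44. Just outside were *BGLU15*, *AT1G47970* and 260143_at, each with 0.44, so the lower end of the group is a cut through a continuous series of values. In wild-type total RNA 42 of the 71 members lay below the median probe set, and the members' levels reached from 3.11 to 12.49.

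**Figure D1:**
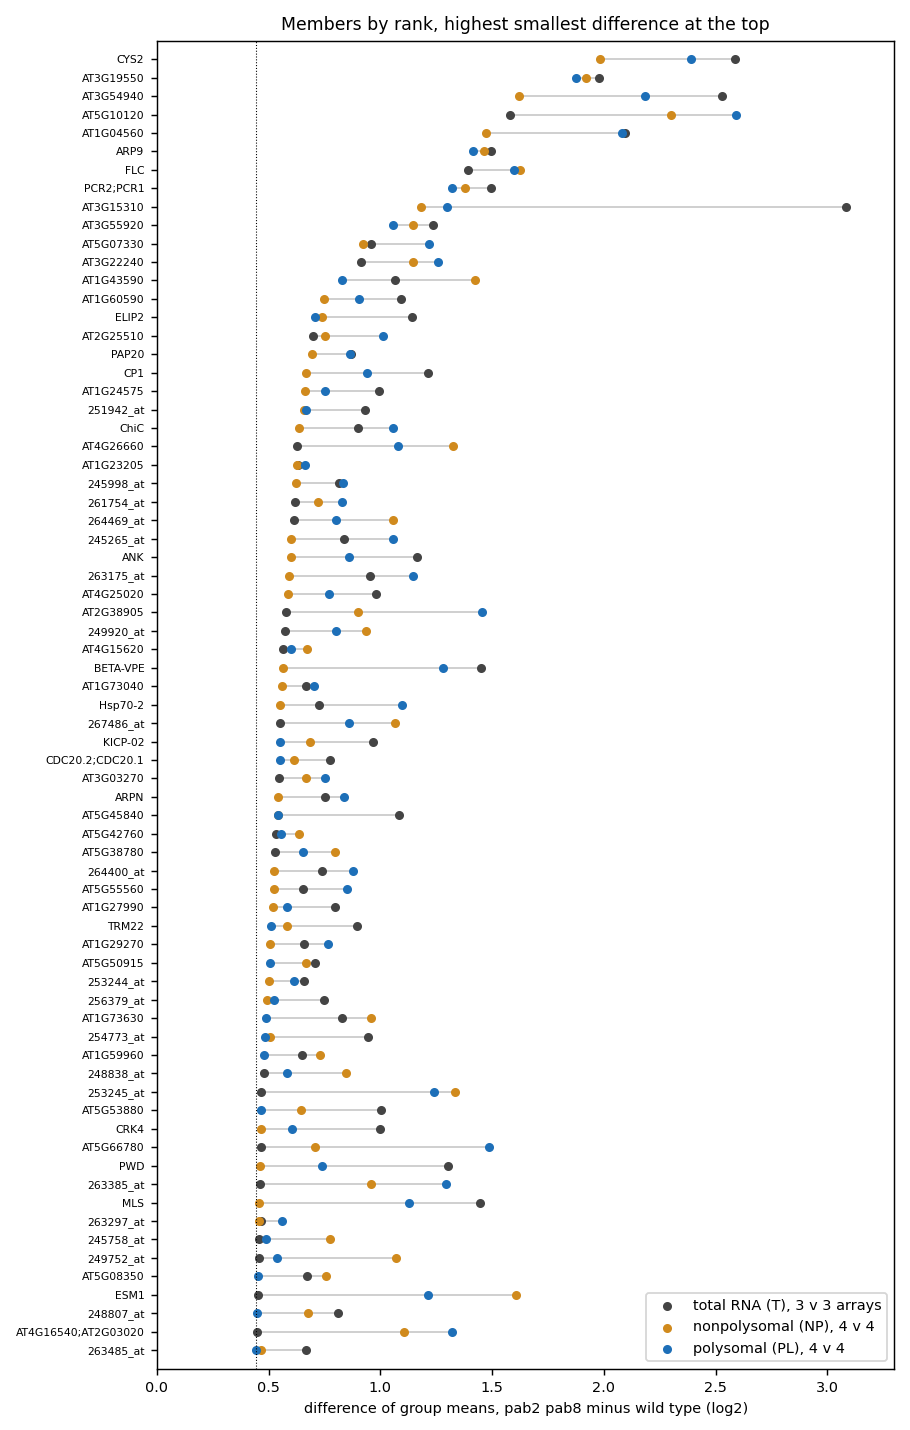
Difference of group means between *pab2 pab8* and wild-type (log2, horizontal axis) for each of the 71 members (rows, by rank) in T (dark), NP (orange) and PL (blue) RNA, with a grey line from the smallest to the largest of the 3. The dotted line is the smallest difference of the last member, 0.44, and the 3 values lie close together for *ARP9* and far apart for *AT3G15310*, *MLS* and *ESM1*.

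Members from lists of seed reserve and seed maturation genes made up 3 of the 5 highest ranked. *CYS2* encodes a phytocystatin, an inhibitor of papain-type cysteine proteases. Its T signals were 5.52, 6.07 and 5.71 in wild-type replicates 1 to 3 and 7.76, 8.57 and 8.73 in the mutant. In NP RNA they were 5.27, 5.19, 5.19 and 5.22 in wild-type replicates 1 to 4 and 7.03, 7.90, 7.47 and 6.39 in the mutant. PL RNA gave 5.90, 5.59, 5.63 and 5.54 in wild-type and 8.12, 8.64, 8.44 and 7.02 in mutant seedlings. Every mutant array was above every wild-type array, and mutant replicate 4 was the lowest of its group in both fractions. The differences were 2.59 ± 0.24 in T, 1.98 ± 0.26 in NP and 2.39 ± 0.31 in PL RNA (log2, ± standard error from limma), or 6.0-fold, 3.95- and 5.24-fold. Standard errors of differences, here and below, ignore pairs and so include the spread between replicates sown on separate occasions.

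*AT3G54940*, annotated as a papain family cysteine protease, is of the enzyme class that phytocystatins inhibit. In T RNA its signals were 3.87, 4.16 and 3.68 in wild-type and 5.94, 6.55 and 6.81 in mutant seedlings. Wild-type NP replicates gave 4.40, 3.51, 3.47 and 3.40 and mutant ones 5.78, 5.85, 4.56 and 5.06. For PL RNA the wild-type gave 3.44, 3.26, 3.26 and 3.02 and the mutant 5.61, 5.97, 5.35 and 4.79. The groups did not overlap in any kind of RNA, although wild-type NP replicate 1, at 4.40, lay close to the lowest mutant NP array, at 4.56. Differences were 2.53 ± 0.21 in T, 1.62 ± 0.30 in NP and 2.19 ± 0.23 in PL RNA. A further papain-type protease, *CP1*, differed by 1.21, 0.67 and 0.94 in T, NP and PL, with no overlap in any of them.

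*AT1G04560* encodes an AWPM-19-like membrane protein, of a family known from wheat plasma membranes. Its T signals were 4.06, 4.01 and 3.76 in wild-type against 5.54, 6.20 and 6.37 in mutant seedlings. The NP arrays gave 3.89, 3.87, 3.41 and 3.54 (wild-type) and 5.42, 5.62, 4.84 and 4.72 (mutant), and the PL arrays 4.18, 3.46, 3.54 and 3.40 (wild-type) and 6.86, 5.82, 5.32 and 4.90 (mutant). All mutant arrays were above all wild-type arrays, with PL replicate 1 the highest in both genotypes. The differences were 2.09 ± 0.20 in T, 1.47 ± 0.22 in NP and 2.08 ± 0.38 in PL RNA.

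*BETA-VPE*, a vacuolar processing enzyme that cleaves seed storage proteins into their mature form, and *MLS*, the malate synthase of the glyoxylate cycle that turns stored fat into sugar, had a smaller difference in NP than in T and PL. *BETA-VPE* had T signals of 6.41, 6.35 and 6.07 in wild-type and 7.43, 8.01 and 7.74 in mutant seedlings. Its NP signals were 4.42, 5.25, 5.03 and 4.32 (wild-type) and 5.52, 5.30, 5.22 and 5.23 (mutant), and its PL signals 4.90, 5.35, 5.26 and 4.82 (wild-type) and 6.19, 7.01, 6.58 and 5.67 (mutant). The genotypes were separate in T and PL and overlapped in NP, where wild-type replicate 2 (5.25) exceeded mutant replicates 3 (5.22) and 4 (5.23). Differences were 1.45 ± 0.15 in T, 0.56 ± 0.21 in NP and 1.28 ± 0.27 in PL RNA for *BETA-VPE*. For *MLS* they were 1.44 ± 0.20 in T, 0.46 ± 0.23 in NP and 1.13 ± 0.21 in PL RNA, again with overlap in NP alone.

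These genes were compared with the rest of a list of 22 genes for the mobilisation of seed reserves, of which 10 were measured under their names and 5 are members (*CYS2*, *AT3G54940*, *CP1*, *BETA-VPE* and *MLS*). Of the 10, 7 passed a false discovery rate (FDR) of 0.05 in T, 1 in NP and 3 in PL, all with a higher signal in the mutant, where 2.44%, 0.0484% and 0.106% of all probe sets did. The members among them were chosen on these contrasts, so the counts only describe the list, and *CYS2* is an inhibitor and not an enzyme of mobilisation. The list's median difference was 1.36 in T, 0.25 in NP and 0.59 in PL. Not all of the list had the pattern of the members. *ICL*, the isocitrate lyase that acts beside malate synthase in the glyoxylate cycle, differed by 1.29 in T but 0.04 in NP and 0.24 in PL. *DELTA-VPE*, a seed coat relative of *BETA-VPE*, differed by 1.43 in T and by -1.27 and -0.32 in the fractions. Of 4 measured genes from a list of other seed maturation genes, all 4 passed the FDR in T and 1, the member *AT1G04560*, in NP. The other 3 were *TIP3;1*, *BGLU19* and *SUC5*, with T differences of 1.70, 2.39 and 1.38 and PL differences of -0.66, -0.29 and 0.37. Over all 10 lists with a measured gene, 38 probe sets were named, 8 of them members. Of the 38, 17 passed the FDR in T, 3 in NP and 3 in PL, none with a lower signal. The shares of all probe sets were 2.44%, 0.0484% and 0.106%. At an unadjusted p under 0.05 by limma, 23, 7 and 9 were higher, and 2, 3 and 6 were lower. The share of all probe sets at that p was not counted. The 8 members among the 38 were chosen on these contrasts, so these counts too only describe the lists.

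**Figure D2:**
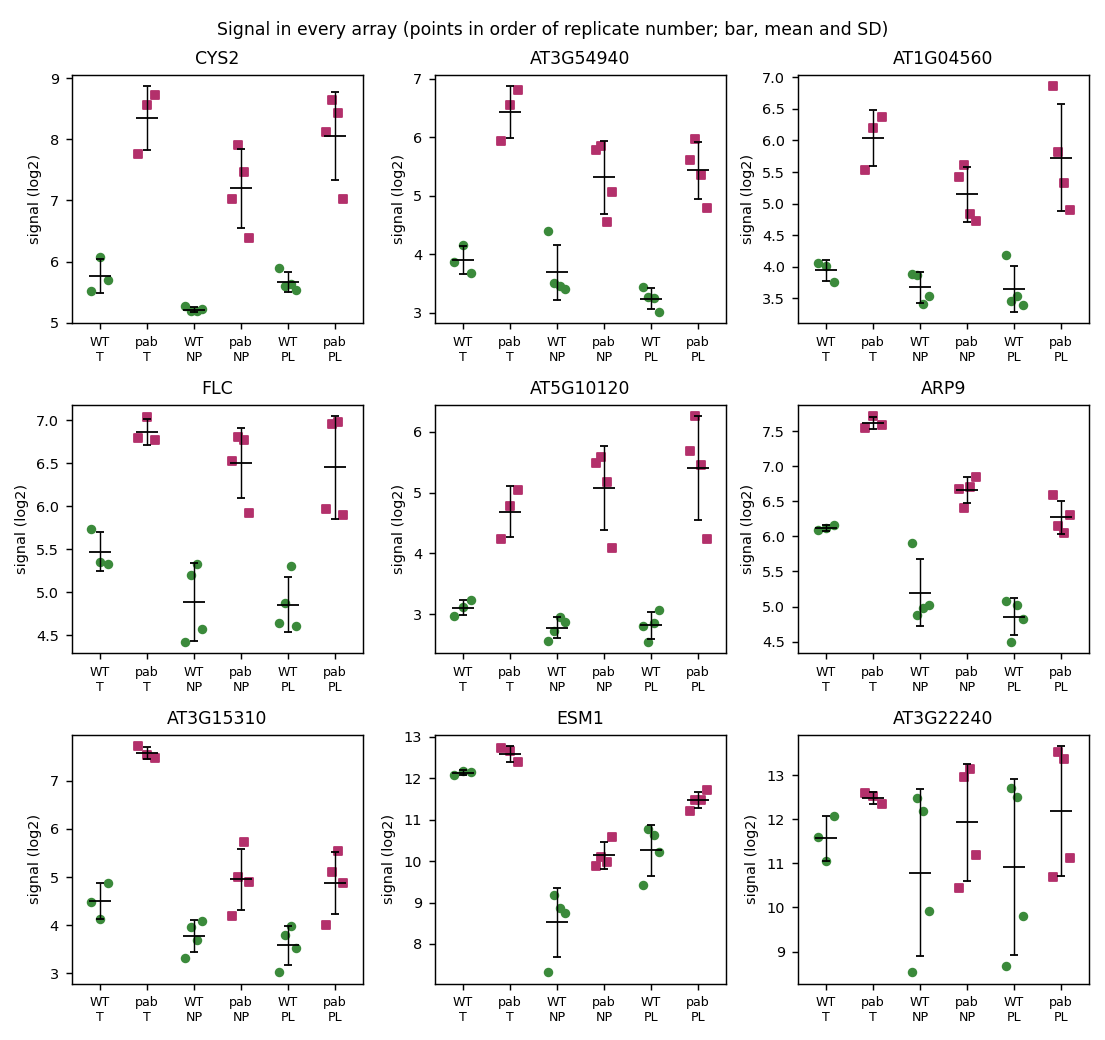
Log2 signal on every array (vertical axis, with its own range in each panel) for 9 members in wild-type (WT, green circles) and *pab2 pab8* (pab, pink squares) T, NP and PL RNA, points from left to right in order of replicate number, and bars for the mean and SD (n = 3 in T, 4 in NP and PL). *CYS2*, *FLC*, *AT5G10120* and *ARP9* show no overlap between genotypes, while the fraction arrays of *AT3G22240* differ more between replicates than between genotypes.

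*FLC* and *AT5G10120* were members that lie 2 genes apart in the annotated gene order. *FLC* encodes a MADS-box transcription factor that represses flowering, and *AT5G10120* a protein of the EIN3 family, whose founding member is a transcription factor of ethylene signalling. *FLC* had T signals of 5.73, 5.35 and 5.33 in wild-type and 6.79, 7.03 and 6.77 in mutant seedlings. Its NP signals were 4.42, 5.20, 5.33 and 4.57 in wild-type and 6.52, 6.81, 6.77 and 5.92 in mutant seedlings. In PL RNA they were 4.64, 4.87, 5.30 and 4.60 (wild-type) and 5.97, 6.95, 6.98 and 5.90 (mutant). Mutant and wild-type did not overlap, although replicates 2 and 3 had the highest *FLC* signals of both genotypes in both fractions. The differences were 1.39 ± 0.13 in T, 1.62 ± 0.25 in NP and 1.60 ± 0.29 in PL RNA, or 2.63-fold in T and 3.03-fold in PL.

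*AT5G10120* was among the dimmest members in the wild-type. Its wild-type T signals were 2.97, 3.12 and 3.23 and its mutant ones 4.23, 4.78 and 5.05. In NP the wild-type gave 2.57, 2.73, 2.95 and 2.87 and the mutant 5.48, 5.58, 5.17 and 4.08. In PL they were 2.80, 2.54, 2.85 and 3.07 (wild-type) and 5.68, 6.26, 5.46 and 4.23 (mutant). No array overlapped between genotypes, and mutant replicate 4 was the lowest of its group in both fractions. Differences were 1.58 ± 0.18 in T, 2.30 ± 0.28 in NP and 2.59 ± 0.37 in PL RNA, and the PL difference was the largest of all members in that fraction. The gene between the pair, *AT5G10130*, differed by -0.25, -0.32 and -0.09 in T, NP and PL. From the flowering time list *AGL24* was also measured, and differed by 0.37, -0.08 and 0.41.

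Genes directly beside the members were also examined. Of the members with 1 gene, 33 had a measured gene directly beside them, 41 such probe sets in all, none of them a member. The median difference of these neighbours was -0.03 in T, -0.01 in NP and 0.00 in PL, with ranges of -0.47 to 1.14, -0.50 to 1.06 and -0.41 to 0.83. Only 1 of them passed the FDR and the 2-fold criterion in T, *AT3G14205*, which lies beside *ESM1* and differed by 1.14, 0.20 and 0.34. Not directly beside but 2 genes from the member *AT3G22240* lies *AT3G22231*, which was among the highest 100 probe sets and was dropped. Of the 46 members placed in the gene order, the one nearest to *PAB2* or *PAB8* was *CP1*, 296 genes away. Probe sets with several genes or no name were not placed. Among them is the one shared by *AT4G33260* and *AT4G33270*, which lie closer to *PAB2* (*AT4G34110*) in locus number than *CP1* (*AT4G36880*) does.

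*ARP9*, an actin-related protein, had the most even difference among the 10 highest ranked members. Its T signals were 6.09, 6.12 and 6.17 in wild-type and 7.55, 7.72 and 7.60 in mutant seedlings. NP signals were 5.91, 4.88, 4.97 and 5.03 (wild-type) and 6.68, 6.41, 6.71 and 6.85 (mutant), and PL signals 5.08, 4.49, 5.02 and 4.83 (wild-type) and 6.58, 6.15, 6.04 and 6.30 (mutant). The genotypes were apart in each kind of RNA, and the T replicates had an SD of 0.04 in wild-type and 0.09 in mutant seedlings. Differences were 1.50 ± 0.09 in T, 1.46 ± 0.22 in NP and 1.42 ± 0.16 in PL RNA. *AT3G55920*, a cyclophilin-like peptidyl-prolyl isomerase, differed by 1.24, 1.15 and 1.06 with no overlap.

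The array carries probe sets for transposable element genes, and 2 of the members are annotated as such. *AT3G15310* had the largest T difference of all members. Its T signals were 4.48, 4.13 and 4.88 in wild-type and 7.72, 7.54 and 7.48 in mutant seedlings. NP signals were 3.33, 3.97, 3.70 and 4.09 (wild-type) and 4.19, 4.99, 5.73 and 4.90 (mutant), and PL signals 3.02, 3.78, 3.97 and 3.53 (wild-type) and 3.99, 5.10, 5.54 and 4.87 (mutant). The genotypes did not overlap in any, but were closer in the fractions, where replicate 1 was the lowest in both genotypes. Differences were 3.08 ± 0.17 in T, 1.18 ± 0.28 in NP and 1.3 ± 0.32 in PL RNA, or 8.47-fold in T against 2.27- and 2.46-fold. *AT1G43590* differed by 1.07, 1.42 and 0.83, also without overlap, and had its largest difference in NP.

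*AT3G19550*, annotated as an unknown protein, ranked high with a similar difference in each kind of RNA. In T the wild-type gave 4.76, 4.11 and 4.40 and the mutant 6.56, 6.69 and 5.97. In the NP fraction the values were 3.84, 5.77, 5.40 and 4.45 (wild-type) and 6.58, 6.83, 7.04 and 6.69 (mutant), and in PL 4.73, 6.47, 6.43 and 4.86 (wild-type) and 6.93, 7.66, 8.05 and 7.35 (mutant). The genotypes were separate, but wild-type NP replicates covered a range close to the size of the difference, with replicates 2 and 3 high. Its differences were 1.98 ± 0.21 in T, 1.92 ± 0.34 in NP and 1.87 ± 0.44 in PL RNA.

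Members with annotated roles at the cell surface or in defence varied in how far they stood clear of the replicate spread. A probe set is shared by *PCR2* and *PCR1*, for membrane proteins of cadmium resistance, and cannot tell them apart. It gave T signals of 7.22, 6.37 and 8.09 in wild-type and 8.65, 8.74 and 8.78 in mutant seedlings. Its NP signals were 3.72, 7.04, 6.48 and 4.68 (wild-type) and 5.58, 7.15, 8.19 and 6.50 (mutant), and its PL signals 5.0, 7.05, 6.65 and 4.75 (wild-type) and 5.25, 8.25, 8.93 and 6.28 (mutant). The genotypes overlapped in both fractions, where replicates 2 and 3 were above replicates 1 and 4 in each genotype, yet the mutant was above its paired wild-type in all 11 pairs. The differences were 1.49 ± 0.34 in T, 1.38 ± 0.68 in NP and 1.32 ± 0.84 in PL RNA.

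*ESM1* directs the breakdown of glucosinolates towards isothiocyanates, and it was a member with a small difference in T and larger ones in the fractions. Its T signals were 12.07, 12.18 and 12.15 in wild-type and 12.73, 12.65 and 12.38 in mutant seedlings. In NP they were 7.32, 9.18, 8.88 and 8.74 (wild-type) and 9.89, 10.09, 9.97 and 10.59 (mutant). In PL they were 9.42, 10.77, 10.63 and 10.21 (wild-type) and 11.22, 11.47, 11.48 and 11.72 (mutant). No overlap occurred, and wild-type replicate 1 was the lowest array in NP and in PL. Its differences were 0.45 ± 0.11 in T, 1.61 ± 0.34 in NP and 1.21 ± 0.27 in PL RNA. Of 3 measured genes for the synthesis of aliphatic glucosinolates, none is a member, and *MAM3*, with 1.11 in T, differed by -0.25 in NP and -0.04 in PL.

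The receptor kinases *CRK4*, of the cysteine-rich class, and *AT5G45840*, with leucine-rich repeats, differed by 1.00, 0.47 and 0.61 and by 1.08, 0.54 and 0.54 in T, NP and PL. For *CRK4* the T signals were 5.48, 5.64 and 6.14 in wild-type and 6.58, 6.60 and 7.08 in mutant seedlings, without overlap, while both fractions overlapped. Its NP difference of 0.47 fell to 0.12 without replicate 3. *AT5G45840* did not overlap in any kind of RNA. *CRK22* and *CRK34*, the other cysteine-rich kinases measured under their names, differed in T by -0.31 and 0.09. *ChiC*, a class V chitinase, differed by 0.90, 0.64 and 1.06, and *ANK*, an ankyrin repeat protein, by 1.16, 0.60 and 0.86, both with overlap in the fractions alone. *AT1G73040*, a mannose-binding lectin, differed by 0.67, 0.56 and 0.70, with overlap in PL alone.

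In carbohydrate metabolism, the member named *PWD* in the tables is the locus *AT4G24450*, also listed as *GWD2*, which encodes a glucan water dikinase, an enzyme that adds phosphate to glucans. Its T signals were 6.98, 6.47 and 6.38 in wild-type and 8.15, 7.94 and 7.65 in mutant seedlings, with no overlap. The NP values overlapped, at 5.81, 7.25, 6.76 and 5.61 (wild-type) and 6.43, 6.73, 7.30 and 6.82 (mutant), and in pair 2 the mutant was below the wild-type by 0.52. Its differences were 1.3 ± 0.17 in T, 0.46 ± 0.33 in NP and 0.74 ± 0.39 in PL RNA. *AT1G60590*, of the pectin lyase-like superfamily, differed by 1.09, 0.75 and 0.90, with overlap in both fractions.

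Among stress-related and light-related members, *ELIP2* encodes a thylakoid protein that accumulates under high light. It gave 7.09, 7.02 and 7.31 in wild-type T RNA and 7.91, 8.32 and 8.62 in the mutant. The PL values were 8.05, 5.47, 5.85 and 7.05 (wild-type) and 8.31, 6.92, 6.97 and 7.05 (mutant), so that replicate 4 had equal signals of 7.05 in both genotypes. The T groups were apart and the NP and PL groups overlapped, with wild-type PL arrays spread over more than the difference between genotypes. Differences were 1.14 ± 0.17 in T, 0.74 ± 0.32 in NP and 0.71 ± 0.56 in PL RNA. The chaperone gene *Hsp70-2* differed by 0.72, 0.55 and 1.10, and did not overlap. *PAP20*, a purple acid phosphatase, differed by 0.87, 0.69 and 0.86, without overlap at a low level, and *ARPN*, the blue copper protein plantacyanin, by 0.75, 0.54 and 0.84, with overlap in NP alone.

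For cell division, *KICP-02*, a kinesin, differed by 0.97, 0.69 and 0.55 with no overlap. The probe set shared by *CDC20.2* and *CDC20.1*, activators of the anaphase-promoting complex, differed by 0.77, 0.61 and 0.55, with overlap in both fractions. *TRM22*, of a family that recruits the microtubule-organising TON1 protein, differed by 0.89, 0.58 and 0.51, also with overlap in both fractions. In the mitosis list 4 genes were measured, none a member. Of these, 2 (*CYCB1;1* and *HIK*) passed the FDR in T with 0.51 and 1.07 (2.44% of all probe sets). In NP these 2 differed by 0.20 and 0.68, and 0 of the 4 passed the FDR. There, 1 of the 4 was higher at an unadjusted p under 0.05 by limma, a share not counted over all probe sets. The same 2 differed in PL by 0.41 and 0.26, and 0 of the 4 passed the FDR there, with 0 at an unadjusted p under 0.05 by limma.

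Several members had no described role in the tables used. *AT3G22240* and *AT2G25510* were among the 3 brightest members in wild-type T RNA, beside *ESM1*, with mean signals of 11.57 and 12.49. *AT3G22240* gave 8.53, 12.49, 12.20 and 9.92 in wild-type NP RNA and 10.45, 12.95, 13.15 and 11.18 in the mutant. PL gave 8.68, 12.71, 12.49 and 9.80 (wild-type) and 10.70, 13.52, 13.38 and 11.13 (mutant). The mutant was above its own pair in all 11 pairs, but the genotypes overlapped in both fractions, with replicates 2 and 3 high and replicates 1 and 4 low in both. Its differences were 0.91 ± 0.22 in T, 1.15 ± 0.82 in NP and 1.26 ± 1.01 in PL RNA, and those of *AT2G25510* 0.70, 0.75 and 1.01.

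Members with 1 gene, named by locus alone and without any annotation in the tables used, numbered 18. Their differences were 0.46 to 0.99 in T, 0.51 to 1.33 in NP and 0.45 to 1.48 in PL. The highest PL difference of these belonged to *AT5G66780*, with 0.46, 0.71 and 1.48 in T, NP and PL, and *AT2G38905* followed with 0.58, 0.90 and 1.46. Others near the top of the ranking were *AT5G07330* (0.96, 0.92 and 1.22), *AT1G24575* (0.99, 0.66 and 0.75, the NP value being 0.41 without replicate 1), *AT4G26660* (0.63, 1.33 and 1.08), *AT1G23205* (0.63, 0.62 and 0.66) and *AT4G25020* (0.98, 0.59 and 0.77). *AT4G15620*, an unknown protein, differed by 0.57, 0.67 and 0.60. A further 20 members had no gene name in the tables used, with differences of 0.46 to 0.95 in T, 0.46 to 1.33 in NP and 0.44 to 1.29 in PL. Of these 20, 15 were higher in the mutant in all 11 comparisons of equal replicate numbers (1.33% of all probe sets) and 6 did not overlap in any kind of RNA (0.237%).

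Mutant seedlings were grown alongside the wild-type and the replicates at different times, so arrays with equal replicate numbers were compared as pairs, 11 for each member. Equal numbers deviated together in NP and PL but not in every pair of T, so the 3 T pairs may share only a number. All 11 were above 0 for 58 of the 71 members, as for 1.33% of all probe sets. All pairs of T were above 0 for 70 members (18.4% of all probe sets), of NP for 61 (7.39%) and of PL for 67 (12.2%), and the ranking fixes these counts in part. Of 781 paired values, 16 were not above 0, spread over 13 members, and 5 of the 16 were in NP pair 2, where the median over all probe sets was -0.22. *AT1G29270* was below its pair in NP pairs 2 (-0.35) and 3 (-0.41). *AT5G42760* was below in NP pair 4 (-0.01) and PL pair 4 (-0.45), and *AT1G27990* in NP pair 1 (-0.22) and PL pair 4 (-0.09). The remaining 10 had a single such pair.

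**Figure D3:**
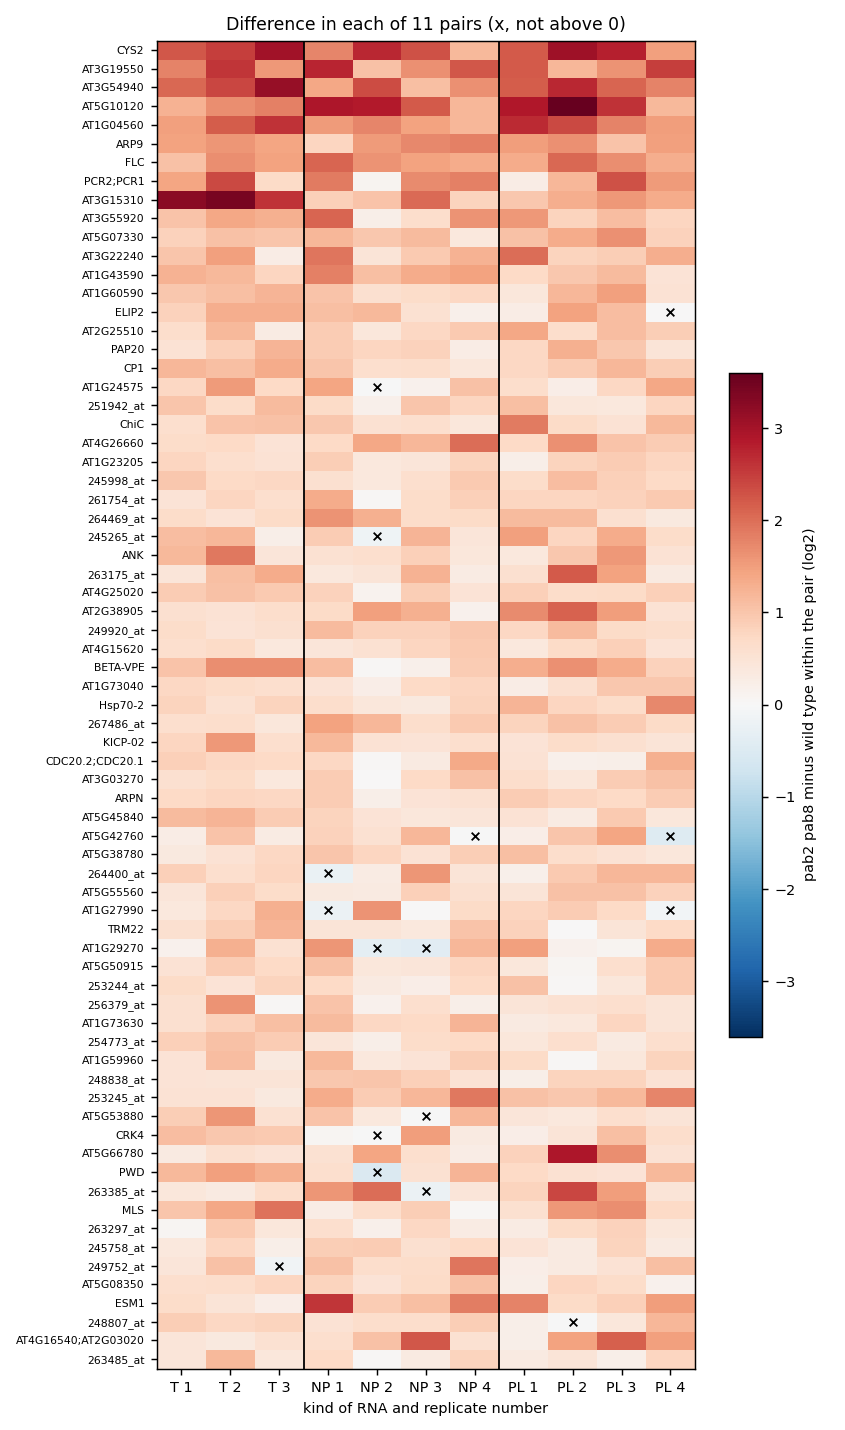
Difference between *pab2 pab8* and wild-type within each of 11 replicate pairs (columns, by kind of RNA and replicate number) for each member (rows, by rank), on a log2 colour scale in which red is higher in the mutant. Crosses mark the 16 values not above 0, which are found from *ELIP2* downwards, with 5 in NP pair 2.

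Without pairing, mutant and wild-type arrays did not overlap for 67 members in T (11.7% of all probe sets), 35 in NP (1.6%), 40 in PL (2.42%) and 29 in all 3 kinds (0.237%). The range of the wild-type replicates exceeded the difference between genotypes for 9 members in T, 34 in NP and 26 in PL. Over the members, the median SD of the wild-type was 0.18 in T, 0.34 in NP and 0.29 in PL, against 0.13, 0.24 and 0.17 over all probe sets. At an FDR below 0.05 and a 2-fold difference, 21 members were called higher in T, 7 in NP and 5 in PL, where 0.435%, 0.044% and 0.0703% of all probe sets were called. *CYS2*, *AT5G10120* and *ARP9* were called in all 3 (0.022% of all probe sets), but 0 members were without replicate 1, 2 or 3, and *CYS2* and *AT5G10120* were without replicate 4. Without replicate 2 or 3, 0 members were called in NP and 0 in PL, and without replicate 1 it was 1 in NP and 0 in PL. With the replicate number as a block, 17 members were called in NP and 26 in PL (0.202% and 0.317% of all probe sets). As the rule chose members on these contrasts, the counts only describe them.

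The ranking did not use the distribution of an mRNA between fractions within a genotype as such. The same NP and PL signals entered its genotype differences, so this distribution is not fully independent of the ranking. The translation state (TL) is the PL signal minus the NP signal (log2) within a genotype and replicate, and a TL of 0 is set by the array normalization, with a median over all probe sets of -0.10 in wild-type and -0.04 in mutant seedlings. Members were found at both ends. In the wild-type, TL passed an FDR of 0.05 above 0 for 19 members (24.2% of all probe sets) and below 0 for 20 (26.2%). In the mutant it was above 0 for 24 (24.4%) and below 0 for 17 (16.3%). As shares of the 71 members these are 26.8% and 28.2% in the wild-type, near those of all probe sets, and 33.8% and 23.9% in the mutant. The share below 0 in the mutant depended on the scaling, and with each array centred on its median it was 20 members (28.2%) against 25.8% of all probe sets. In both genotypes 18 were above 0 (20.6% of all probe sets) and 12 below (12.6%), and 0 were on opposite sides at that FDR (0.0352%).

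The highest wild-type TL of all members was that of *ESM1*, with 2.1, 1.59, 1.75 and 1.48 in wild-type replicates 1 to 4 and 1.33, 1.38, 1.51 and 1.13 in the mutant. All 8 values were above 0, with means of 1.73 ± 0.27 and 1.34 ± 0.16 (SD, n = 4 each; FDR = 2.28e-08 and 3.82e-07, limma against 0). *AT1G24575* (1.69 ± 0.10 and 1.78 ± 0.54), *ARPN* (1.27 ± 0.22 and 1.57 ± 0.22) and *ChiC* (1.12 ± 0.54 and 1.54 ± 0.10) were also above 0 in both genotypes by that test. The lowest TL was that of 248807_at, with -1.51 ± 0.32 and -1.74 ± 0.12 (FDR = 1.14e-07 and 3.38e-08, limma). *PWD* was also lower in PL than in NP, with -1.66, -1.65, -1.14 and -0.90 in wild-type and -1.56, -0.57, -1.18 and -0.94 in mutant seedlings, all below 0 (FDR = 4.51e-06 and 5.11e-05, limma). The transposable element gene *AT1G43590* was lower in PL than in NP in both genotypes, with -0.77 ± 0.29 and -1.36 ± 0.54 (FDR = 0.00135 and 6.98e-06, limma), while *AT3G15310* had -0.19 ± 0.35 and -0.08 ± 0.14 (FDR = 0.235 and 0.672).

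**Figure D4:**
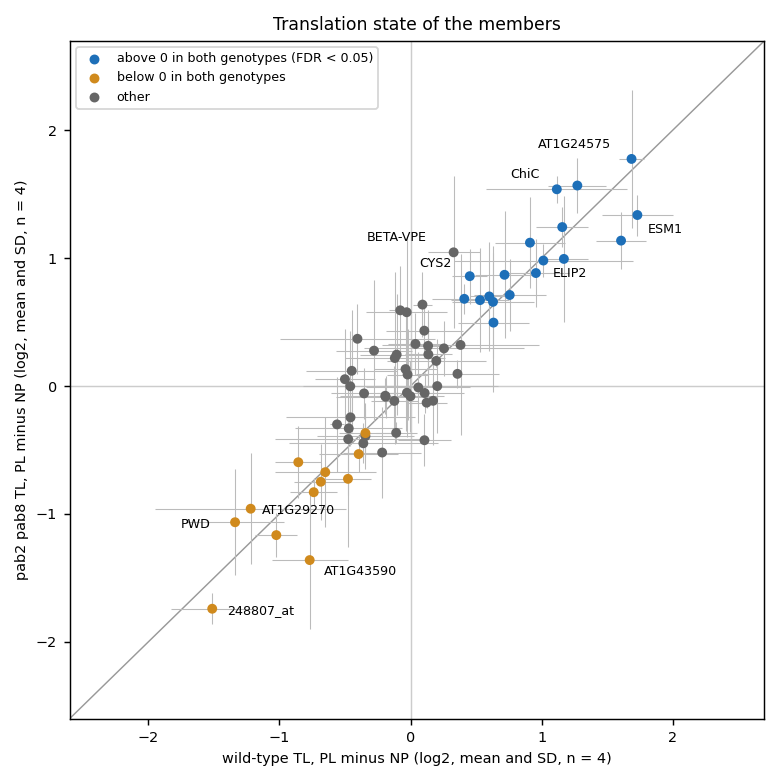
Translation state (TL, log2 PL minus log2 NP) of the 71 members in the wild-type (horizontal) and in *pab2 pab8* (vertical), as means with SD over 4 replicates, and the line of equal values. Blue points are above 0 in both genotypes (18) and orange ones below 0 in both (12) at an FDR below 0.05, and the members run from 248807_at at the lower left to *AT1G24575* and *ESM1* at the upper right.

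Among the seed-to-seedling genes, *CYS2* had TL means of 0.45 ± 0.13 for wild-type and 0.86 ± 0.21 for mutant seedlings (SD, n = 4 each; FDR = 0.00478 and 2.06e-05, limma against 0). *BETA-VPE* had 0.33 ± 0.20 and 1.05 ± 0.59 (FDR = 0.119 and 0.000115, limma) and *MLS* -0.08 ± 0.08 and 0.59 ± 0.35 (FDR = 0.629 and 0.00155, limma). *FLC* was near 0 in both, with -0.03 ± 0.23 and -0.05 ± 0.35. The change of TL between genotypes is the PL difference minus the NP difference, and so was used by the rule. It had a median of 0.09 over the members (range -0.59 to 0.77) and 0.05 over all probe sets, was above 0 for 40 of the 71 against 58.9% of all probe sets, and was called for 0 members by limma (0.0264% of all probe sets higher and 0.0% lower), with 13 (18.3%) at an unadjusted p under 0.05, as for 8.64% of all probe sets. *AT5G66780*, *BETA-VPE* and *MLS* had the highest values, 0.77, 0.72 and 0.67, and *AT1G43590* the lowest.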

How the data were processed

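ATH1 arrays of T, NP and PL RNA from *pab2 pab8* and wild-type seedlings were used (3, 4 and 4 per genotype). The authors extracted the signals with affy and normalized them with RMA, on a log2 scale as deposited. Their versions were not given in the sources used here. T and fraction arrays were normalized apart, so genotypes were compared within a kind of RNA. Signals have no detection calls here, and those near the bottom of the scale hold little information. The number of arrays limits the precision.

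Genotype differences and TL were fitted with limma 3.58.1 in R 4.3.3 (lmFit, eBayes), and p-values were adjusted by Benjamini and Hochberg across 22746 probe sets. The main fits and their standard errors took no account of pairs. Genotype calls needed an FDR below 0.05 and a 2-fold difference, and tests of TL against 0 and gene lists the FDR alone. The fits were checked on simulated data with independent noise on each array. Such data hold no deviations shared by equal replicate numbers. Counts and plots used Python 3.11.15, numpy 2.4.6, pandas 2.3.3 and matplotlib 3.10.9. Of the members, 39 were named from the array annotation (updated through RefSeq, TAIR10.1) and 9 from the study's tables, 3 have several genes and 20 no name. A probe set without a name could not be dropped by family and stayed. The 18 members with a locus ID alone and no annotation had no description to match. Genes of the dropped families could therefore remain among them too. Most genes of the lists could not be found by name, so list counts cover the measured ones.

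The named genes are the 25 highest members with 1 gene, those nearest the limit, up to 3 members per list and *PAB2* and *PAB8*. Further members were named after their values were seen. The members and lists were chosen with earlier results of these data known.

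Per the labels, the mutant grew alongside the wild-type and the replicates at different times, and equal numbers were taken as pairs, which the labels do not spell out. Deviations from the group means correlated across probe sets between equal numbers at r = -0.16, -0.06 and 0.21 in T, 0.38, 0.31, 0.29 and 0.36 in NP, and 0.80, 0.60, 0.62 and 0.43 in PL. Equal numbers thus deviated together in NP and PL and not in every pair of T. Unequal numbers were not compared, so these values do not show that equal numbers are the matching ones. Alternatives were a block for the replicate number, eBayes with trend, median centring, quantile normalization, group medians, brighter probe sets alone, the deposited TL columns and leaving out each replicate. The 16 NP and PL columns of the deposited TL table were not used. Promoter motifs were not analysed here.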

Additional observations from a re-analysis of the deposited data

Results flagged for a closer look

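Of 116 groups of 4 arrays tested for the 29 named members, 6 held an array far from the other 3, and chance gives such a gap in about 1 in 20 groups. In wild-type NP RNA, replicate 1 was the highest array for *AT3G54940*, at 4.395 against 3.40 to 3.51 on the other arrays (log2 signal), and for *ARP9*, at 5.909 against 4.88 to 5.03. In wild-type PL RNA, replicate 1 was the highest for *AT2G38905*, at 4.55 against 4.22 to 4.25, and for 248807_at, at 7.532 against 6.32 to 6.45. In *pab2 pab8*, PL replicate 1 was the highest for *ELIP2*, at 8.312 against 6.92 to 7.05, and NP replicate 4 was the lowest for *AT1G24575*, at 5.626 against 6.50 to 6.56.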

How the results depend on the processing

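Ranking again kept 61 of the 71 members with each array centred on its median, 65 with quantile normalization, 58 with group medians, 40 with only probe sets above the median mean signal, which removes dim members by construction, and 54 to 62 without a replicate. Of the 71, 37 stayed without each replicate in turn, among them *CYS2*, *AT3G54940*, *AT1G04560*, *AT5G10120*, *FLC*, *ARP9* and *AT3G15310*, while *BETA-VPE*, *MLS*, *ESM1*, *CRK4* and *PWD* left at least once. Dropping the families before ranking kept all 71 and added 29. Members called at 2-fold in T numbered 21, and 53 at the FDR alone, 11 among brighter probe sets and 9 to 25 without a replicate, with 9 without replicate 2. In NP the 7 called became 17 with the replicate block and 0 to 2 without a replicate. In PL the 5 called became 26 with the block, 3 among brighter probe sets and 0 to 5 without a replicate, with 0 without replicate 1, 2 or 3. The 3 members called in all kinds of RNA became 9 with the block and 0 to 2 without a replicate. Settings without a replicate hold fewer arrays and those with brighter probe sets fewer probe sets, and the cause was not tested further. The block moved no count of T, TL or list calls by over 1.5 times. Members with a TL below 0 numbered 20 in the wild-type, 11 among brighter probe sets, and 17 in the mutant, 11 to 16 without a replicate, with 11 without replicate 4. List genes called in T numbered 17, 10 among brighter probe sets and 7 to 16 without a replicate, with 7 without replicate 2. No smallest difference of the 29 named members changed sign over 203 values under alternatives, and 16 moved by more than the replicate spread. Without 1 replicate, the PL difference of *ELIP2* went from 0.71 to 0.46 (replicate 2), and that of 248807_at from 0.45 to 0.20 (replicate 4). Promoter motifs were not run. Dim signals limit the values of the lowest members.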
